A study of Mus musculus with 4 samples.

Results

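The class II antigen presentation genes described here are the 10 mouse genes H2-Aa, H2-Ab1, H2-Eb1, H2-DMa, H2-DMb1, H2-DMb2, H2-Oa, H2-Ob, Cd74 and Ciita. The list was drawn up with earlier results of these data known; the genes were then found by name in the scanner files, by a rule that uses no measured value. They are carried by 14 of the 39429 probes other than controls, with 1 spot per probe. In the table of 22161 genes that passed the filter on dim probes all 10 were present, and 9 of them were well above background on all 4 arrays. The exception was H2-DMb2, which was well above background on 3.

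Colon RNA was hybridised to 4 single-colour Agilent arrays, 1 array per group, each with RNA mixed from 3 mice. In the X-KO DSS group, Pla2g10-deficient (X-KO) mice drank 1% (w/v) dextran sulfate sodium (DSS), a polymer that injures the colon lining, and were sampled at day 7. The WT DSS group held wildtype mice given the same DSS for the same time. The X-KO naive and WT naive groups held untreated mice of each genotype. All mice were labelled C57BL/6 and are taken as 9-week-old males, because the sex tag holds the age and the age tag the sex. The growth protocol gives an age of 8 weeks. The kind of deletion and its breeding history are not given in the sources used here. With 1 pooled array per group, no difference between 2 groups has a replicate check, and no p-value is given for one.

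MHC class II molecules are cell-surface heterodimers that show peptides from endocytosed proteins to CD4+ T cells. Their genes are switched on by CIITA, a co-activator that binds no DNA itself but docks on factors assembled at the X and Y boxes of class II promoters. B cells, dendritic cells and macrophages express them constantly, and interferon-gamma induces them in other cells, gut epithelium among them. The invariant chain (Cd74) escorts new class II molecules to endosomes and leaves a peptide in their groove. There the H2-DM dimer exchanges that peptide for antigen, and the H2-DO dimer, found mostly in B cells and some dendritic cells, restrains H2-DM.

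Ciita was read by a single probe of repetitive sequence, not shown, so each Ciita value below is the signal of that probe, and how much of it other RNA gave was not tested. Probe sequences also bear on H2-Ab1 and H2-DMb1, and theirs are given here 5′ to 3′ as deposited, with mm9 coordinates. H2-Ab1 was read by an overlapping pair of probes (chr17:34406296-34406355 and chr17:34406305-34406363, plus strand), which share 51 bases and differ at 1 of them, T51C counted from 1 at the 5′ end of the first, shown in capitals. H2-DMb1 had a probe with signal (chr17:34297109-34297168, plus strand) and a probe that was not well above background on any array (chr17:34290109-34290168, plus strand). The probe without signal starts 27 bases before the annotated gene start of the RefSeq promoter window of H2-DMb1 and differs from that window at 2 of 60 bases, shown in capitals.
H2-Ab1 first probe: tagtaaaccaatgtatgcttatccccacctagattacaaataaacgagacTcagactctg
H2-Ab1 second probe: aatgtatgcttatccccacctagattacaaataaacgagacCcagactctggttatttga
H2-DMb1 probe with signal: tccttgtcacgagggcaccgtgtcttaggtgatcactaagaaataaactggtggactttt
H2-DMb1 probe without signal: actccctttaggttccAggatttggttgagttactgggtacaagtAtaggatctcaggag

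The promoters are shown because CIITA acts through a shared arrangement of boxes in them. Of the 10 genes, 7 matched the table of RefSeq promoter windows of the GRCm38.p6 build (300 bases each, 8 windows, 2 of them for H2-DMa), and H2-Ab1, Cd74 and Ciita did not. Searched on both strands, GATTGG, the core of the Y box bound by NF-Y, was in 7 of the 8 windows and in 16.1% of all 32851 windows. GNAAC, a core of the X box bound by the RFX complex, was in 8 of 8 windows and in 84.8% of all windows. A GNAAC starting 29 to 32 bases before a GATTGG on the same strand was in the windows of 5 of the 7 genes (H2-Aa, H2-Eb1, H2-DMb1, H2-Oa and H2-Ob) and in 0.234% of all windows (77 of 32851). The spacing was read from these 5 promoters, so the share describes how common the arrangement is and tests nothing. H2-Aa also held TGACGTCA, the full site of CREB-type factors, found in 1.79% of all windows, between the other motifs and without overlap. Capitals mark these motifs in the stretches below, which run 5′ to 3′ along the gene's strand. The stretches lie at chr17:34287861-34287912 (minus strand) for H2-Aa, and on the plus strand at chr17:34305767-34305818 for H2-Eb1, chr17:34153089-34153140 for H2-DMb1, chr17:34145118-34145169 for H2-DMb2, chr17:34092295-34092346 for H2-Oa and chr17:34238807-34238858 for H2-Ob.
H2-Aa: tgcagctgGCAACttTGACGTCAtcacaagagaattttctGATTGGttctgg
H2-Eb1: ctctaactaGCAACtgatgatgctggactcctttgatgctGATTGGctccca
H2-DMb1: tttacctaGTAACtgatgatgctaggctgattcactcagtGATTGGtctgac
H2-DMb2: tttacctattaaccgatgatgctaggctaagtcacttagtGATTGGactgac
H2-Oa: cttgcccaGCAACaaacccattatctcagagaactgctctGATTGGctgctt
H2-Ob: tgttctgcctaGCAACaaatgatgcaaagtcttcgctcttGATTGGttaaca

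Between 67.7% and 70.4% of spots were well above background on each array, and 0 spots were saturated. Probes spotted repeatedly varied with a median SD between 0.0618 and 0.0718 in log2 signal, a measure of spot noise that holds nothing of the variation among mice. For the brightest probe of each class II gene the scanner software's own error estimate ran from 10% of the signal to 31.8%, the highest being that of H2-DMb2 on the WT naive array. The probe of Pla2g10, the targeted gene, had a relative signal of 0.993 in X-KO DSS and 19.0 in WT DSS colon, and of 1.69 in X-KO naive and 15.8 in WT naive colon, so the arrays ran the way of their genotype labels. Whether this probe lies in the deleted stretch is unknown here. Epithelial genes summed to 663 in X-KO DSS and 821 in WT DSS colon, against 866 in X-KO naive and 731 in WT naive colon. Pancreas and fat genes summed to a relative signal of 34.5 in X-KO DSS and 52.8 in WT DSS colon, against 11.1 in X-KO naive and 11.6 in WT naive colon. Of 9 such genes, 8 were higher by 2-fold with DSS in X-KO (5.67% of all genes) and 8 in WT (3.44% of all genes). Amy2a5 was at least 272-fold higher with DSS in X-KO and at least 806-fold in WT, while Cela1 was 2.88-fold lower in X-KO. In X-KO DSS 5 of the 9 were lower by 2-fold than in WT DSS colon (2.2% of all genes). The part of the epithelial, pancreas and fat genes in the class II values was not tested.

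Levels are given as the relative signal of the brightest probe, that is, the processed signal over the 75th percentile of its array, and are comparable between arrays but not between probes. Ciita, the transactivator, had a relative signal of 0.0824 in X-KO DSS, 0.0409 in WT DSS, 0.0455 in X-KO naive and 0.0316 in WT naive colon. The X-KO DSS array stood apart at the top, X-KO naive was a little above WT DSS, and WT naive was lowest.

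The classical chains, which form the peptide-binding molecules, were also highest in X-KO DSS and lowest in WT naive colon, but with WT DSS above X-KO naive. H2-Aa, the alpha chain of I-A, had a relative signal of 5.22 in X-KO DSS, 1.60 in WT DSS, 1.35 in X-KO naive and 0.993 in WT naive colon. H2-Ab1, its beta chain, had 47.2, 24.0, 20.9 and 15.7 on the same arrays by its brighter probe and 49.7, 23.5, 20.5 and 15.4 by the overlapping one. For both chains the X-KO DSS array was the highest of the 4 by a wide margin, and the other 3 lay closer together. H2-Eb1, the beta chain of I-E, had a relative signal of 31.9 in X-KO DSS, 15.6 in WT DSS, 14.9 in X-KO naive and 10.96 in WT naive colon. Its partner chain H2-Ea was not well above background on any array. Mice of the b haplotype, C57BL/6 among them, carry a deletion at H2-Ea and make no I-E. Cd74, the invariant chain (probe at chr18:60972075-60972132, mm9), had a relative signal of 20.5 in X-KO DSS, 8.34 in WT DSS, 7.42 in X-KO naive and 5.48 in WT naive colon.

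The peptide exchange factor H2-DM is an alpha chain (H2-DMa) paired with a beta chain from either of a pair of neighbouring genes. H2-DMa had a relative signal of 1.36 in X-KO DSS, 0.617 in WT DSS, 0.386 in X-KO naive and 0.310 in WT naive colon. Its probe covers 564 bases of genome for 60 bases of sequence (chr17:34274300-34274863) and so reads spliced RNA. H2-DMb1 had 4.71 in X-KO DSS, 1.67 in WT DSS, 1.32 in X-KO naive and 0.857 in WT naive colon. H2-DMb2 was dim, at 0.0461, 0.0212, 0.0263 and 0.0163 on the same arrays, the last not well above background. For H2-DMa and H2-DMb1 both DSS arrays were above both naive arrays, while H2-DMb2 was higher in X-KO naive than in WT DSS colon.

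The inhibitory H2-DO chains had another order. H2-Oa, the alpha chain, had a relative signal of 0.459 in X-KO DSS, 0.230 in WT DSS, 0.312 in X-KO naive and 0.171 in WT naive colon. H2-Ob, the beta chain, had 0.196, 0.0884, 0.196 and 0.117 on these arrays by its brightest probe and 0.204, 0.107, 0.157 and 0.107 by a second one. In both genes each X-KO array was above both WT arrays. Another H2-Ob probe (chr17:34377309-34377368) was well above background on the WT naive array alone, with a relative signal of 0.0378, and at 0.00345 in X-KO DSS, 0.00274 in WT DSS and 0.00370 in X-KO naive colon it went against the remaining H2-Ob probes.

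**Figure D1:**
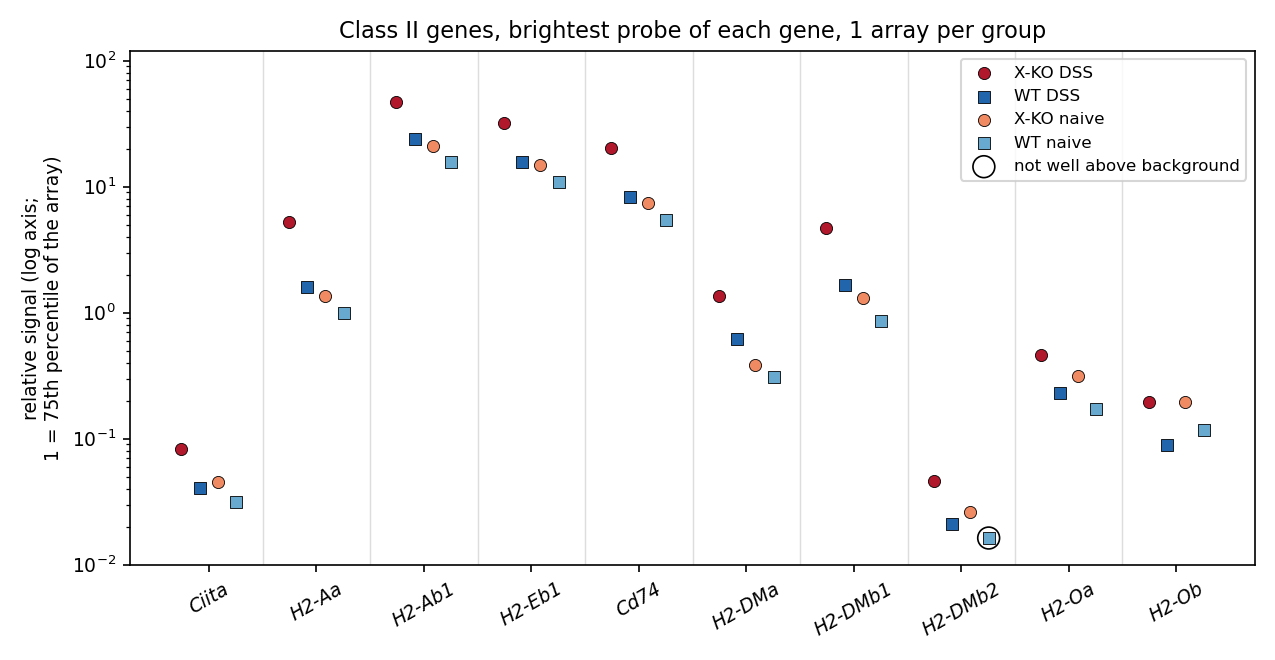
Relative signal of the brightest probe of each class II gene (vertical log axis, 1 being the 75th percentile of the array) on the X-KO DSS, WT DSS, X-KO naive and WT naive arrays, 1 symbol per array. The X-KO DSS symbol is the highest for every gene except H2-Ob, where X-KO DSS and X-KO naive both stand at 0.196.

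With DSS, X-KO colon was set against WT colon to ask how the deletion alters the inflamed tissue. All 10 class II genes were higher in the X-KO DSS pool, as were 39.1% of all genes. The 10 log2 ratios ran from 0.98 to 1.71 with a median of 1.13, against a median of -0.09 over all 22161 genes. At 2-fold, 8 of 10 were higher and 0 lower, where 5.06% of all genes were higher and 2.2% lower. H2-Aa was 3.27-fold higher, H2-DMb1 2.82-fold, Cd74 2.45-fold, H2-Ob 2.22-fold, H2-DMa 2.20-fold, H2-DMb2 2.17-fold, H2-Eb1 2.05-fold and Ciita 2.02-fold. H2-Oa at 1.99-fold and H2-Ab1 at 1.97-fold were just short, and the overlapping H2-Ab1 probe gave 2.12-fold. With normexp background correction and quantile normalization Ciita (log2 ratio 0.61), H2-DMb2 (0.59) and H2-Ob (0.73) were under 2-fold, and with median scaling Ciita (0.92) and H2-Eb1 (0.94) were. With quantile normalization alone Ciita came to 0.93. In RNA of whole tissue, more cells that carry class II molecules and more class II RNA per cell cannot be told apart.

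Untreated, the genotypes differed less. In naive colon all 10 genes were higher in X-KO than in WT, as were 54.5% of all genes. The 10 log2 ratios ran from 0.32 to 0.86 with a median of 0.48, against 0.02 over all genes. None reached 2-fold, where 1.13% of all genes were higher, and 4 of 10 reached 1.5-fold, where 3.2% of all genes did. Those 4 were H2-Oa (1.82-fold), H2-Ob (1.67-fold), H2-DMb2 (at least 1.60-fold, its WT naive signal being too dim to give more than a bound) and H2-DMb1 (1.54-fold). H2-Aa (1.36-fold) and H2-DMa (1.25-fold), high with DSS, were among the lower ones. The H2-Ob value rests on its brightest probe: the second gave 1.47-fold, the dim one was at least 2.46-fold lower in X-KO, and the mean of all probes gave a log2 ratio of -0.69. With normexp and quantile normalization H2-Ob (log2 ratio 0.44) and H2-DMb2 (0.27) were under 1.5-fold.

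In X-KO mice, DSS colon was set against naive colon. The median log2 ratio of the class II genes was 1.14, against -0.13 over all genes, and single values ran from 0.00 to 1.95. At 2-fold 6 of 10 were higher, where 5.67% of all genes were: H2-Aa (3.87-fold), H2-DMb1 (3.57-fold), H2-DMa (3.51-fold), Cd74 (2.76-fold), H2-Ab1 (2.26-fold) and H2-Eb1 (2.14-fold). These are the classical chains, the invariant chain and the main H2-DM pair. Ciita was 1.81-fold higher and H2-DMb2 1.75-fold, H2-Oa 1.47-fold, and H2-Ob stood at a log2 ratio of 0.00 by its brightest probe and 0.38 by the second.

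In WT mice the same genes stood apart less. The median log2 ratio of DSS over naive was 0.56, against -0.02 over all genes, and 9 of 10 were above 0, as were 48.4% of all genes. None reached 2-fold, where 3.44% of all genes were higher, and 5 of 10 reached 1.5-fold, where 7.95% of all genes did. H2-DMa came to 1.99-fold, H2-DMb1 to 1.95-fold and H2-Aa to 1.61-fold. H2-Ob had a log2 ratio of -0.40 by its brightest probe and of -0.0039 by the second. These comparisons share arrays (the X-KO DSS array enters the genotype and the DSS comparison), so their values are given side by side and add no support to each other.

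**Figure D2:**
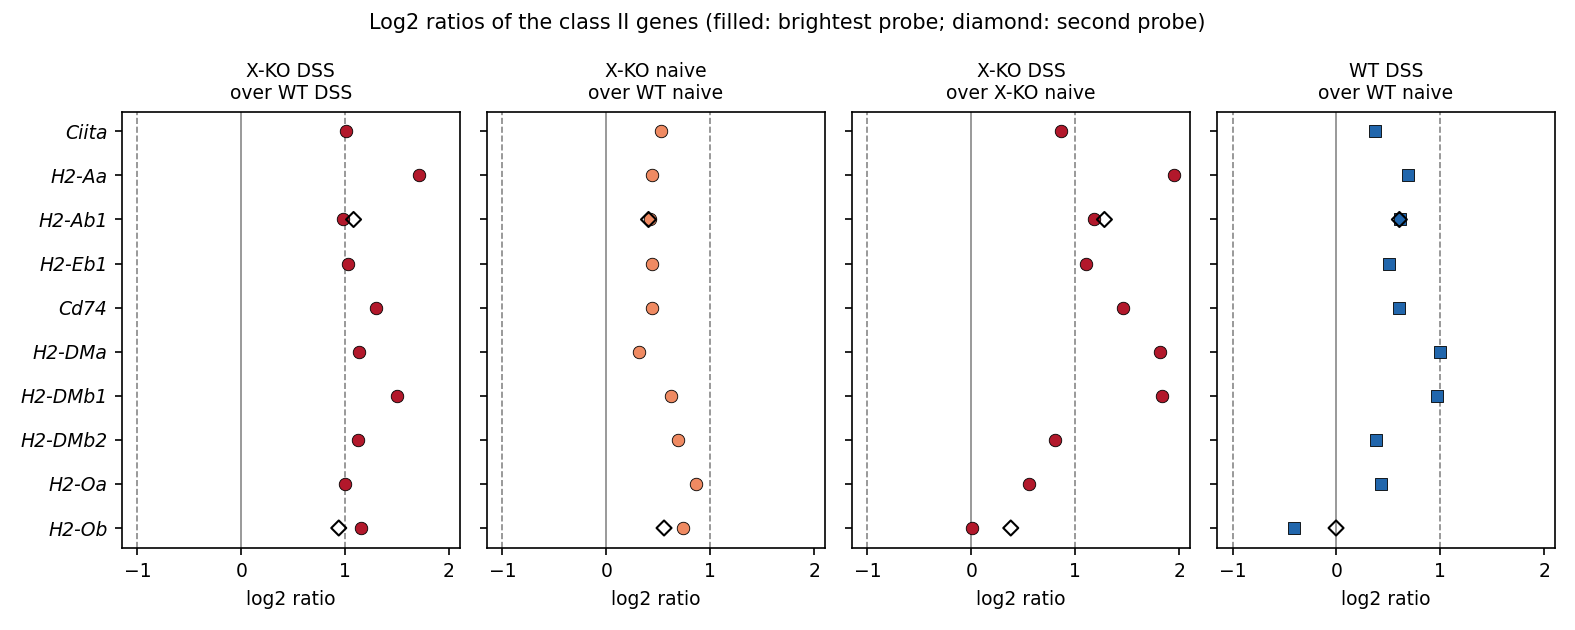
Log2 ratios of the 10 class II genes (horizontal axis) in the 4 comparisons, with the brightest probe as a filled symbol and a second probe of H2-Ab1 and H2-Ob as a diamond where it was well above background on both arrays; dashed lines mark 2-fold. With DSS the X-KO over WT values lie between 0.98 and 1.71, and in naive colon between 0.32 and 0.86.

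**Figure D3:**
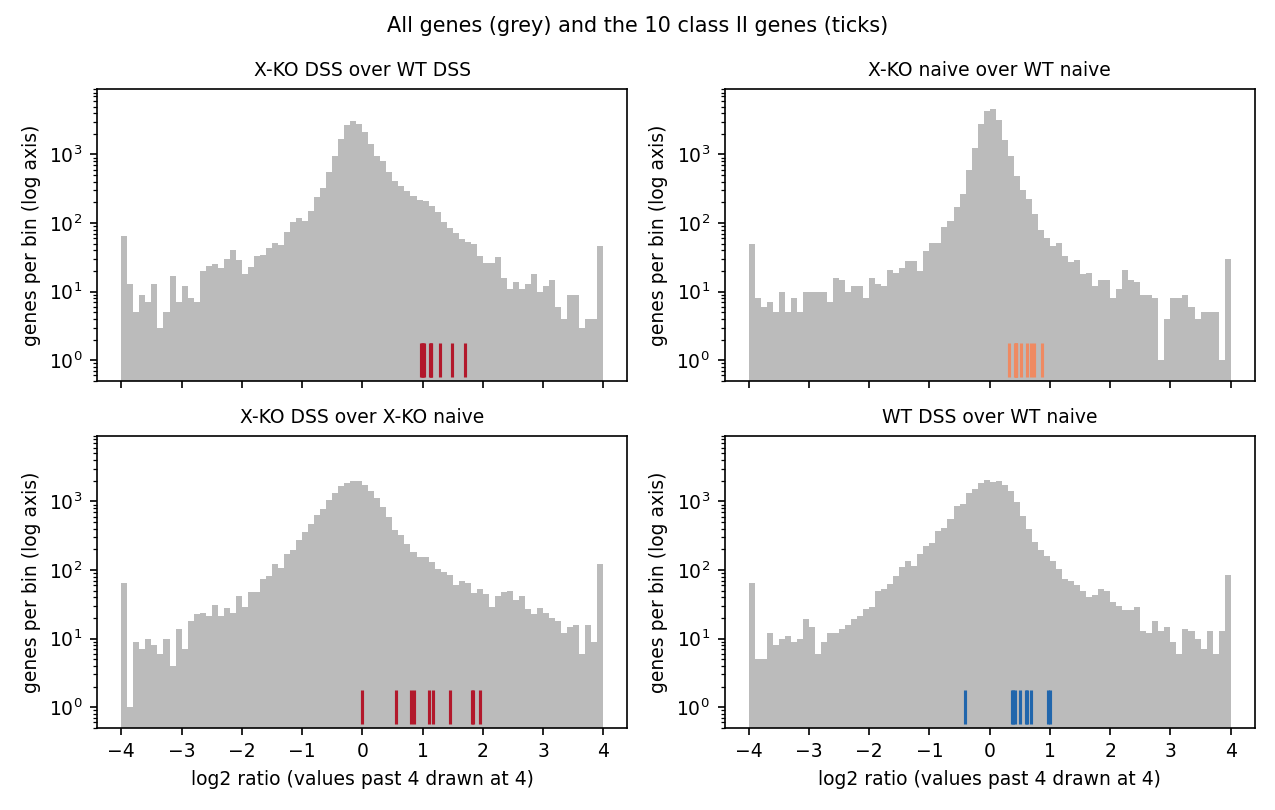
Distribution of the log2 ratios of all 22161 genes (grey, genes per bin on a log axis) with the class II genes as coloured ticks, for each comparison, values past 4 being drawn at 4. The ticks lie right of the centre of the distribution in X-KO DSS over WT DSS, where the class II median is 1.13 and that of all genes -0.09.

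The response to DSS was larger in X-KO than in WT for all 10 genes as measured. The difference of the log2 ratios, X-KO minus WT, had a median of 0.58 against -0.10 over all genes, of which 40.1% were above 0. It was largest for H2-Aa (1.27), H2-DMb1 (0.87), Cd74 (0.86) and H2-DMa (0.82), and smallest for H2-Oa (0.13). This order depends on the processing: with the mean of all probes H2-Ob came to 1.49, and with quantile normalization H2-Ab1, at 0.56 by its brightest probe, came to 0.98. With 4 arrays this difference has no residual degree of freedom and no test, and its size for H2-Oa is near the noise of repeat spots.

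**Figure D4:**
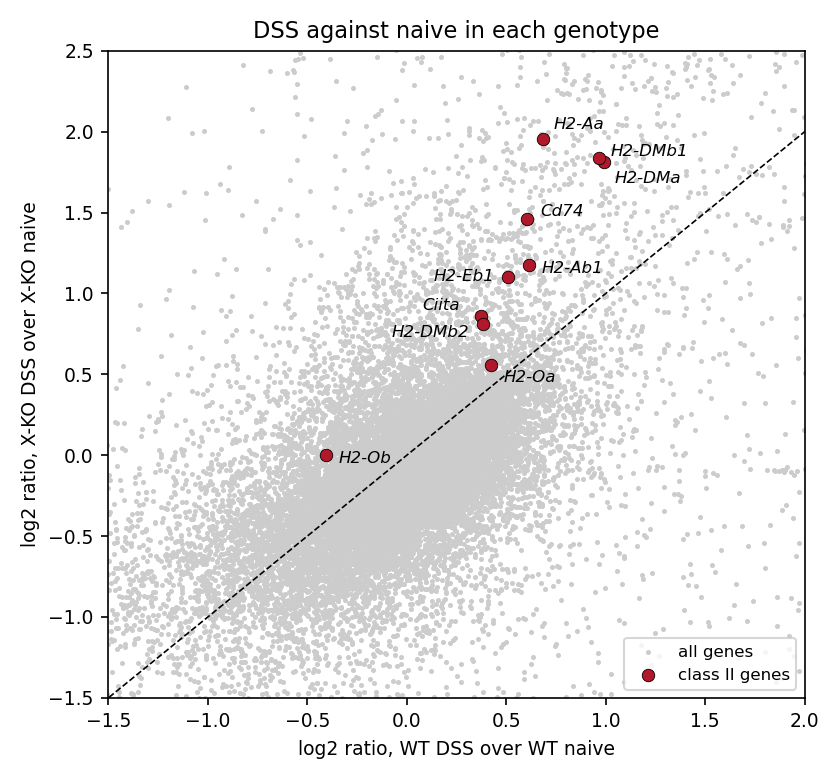
Log2 ratio of DSS over naive in X-KO colon (vertical) against that in WT colon (horizontal), all genes in grey and class II genes in red, with a dashed line of equal responses; values outside the axes are not drawn. All 10 class II genes lie above the line, H2-Aa farthest from it with 1.95 in X-KO and 0.69 in WT.

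The mean effects of DSS and of genotype were tested in an additive limma fit over all 4 arrays with 1 residual degree of freedom. After Benjamini-Hochberg adjustment over all 22161 genes, 0 genes passed for either effect (0% of all genes), and so 0 class II genes did. For DSS, limma's adjusted p of the class II genes ran from 0.218 (H2-DMa, mean log2 change 1.40 ± 0.28, SE) to 0.600 (H2-Ob, -0.20 ± 0.20, SE). At an unadjusted p under 0.05, 6 of 10 were below that level for DSS, as were 18.3% of all genes. For genotype limma's adjusted p was 0.999 for each, with 7 of 10 at an unadjusted p under 0.05, as were 3.89% of all genes (862). H2-Oa had the smallest unadjusted limma p for genotype, 0.00912, with a mean log2 change of 0.93 ± 0.16 (SE). The fit's only residual is the difference of DSS responses between the genotypes, which was smallest for H2-Oa (0.13). Limma thus takes that difference as error, and the SE and p-values do not measure the variation among mice. H2-DMa and H2-DMb1 passed for DSS when limma was run only on genes bright enough on each of the 4 arrays (adjusted p = 0.0285 and 0.0305, with 6.58% of all genes called) and with trend and robust (adjusted p = 0.0225 and 0.0357, with 7.29% of all genes called).

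Upstream of these genes, 3 genes of the interferon-gamma route (Ifng, Socs1 and, in WT, Irf1) were higher by 2-fold with DSS. Over all genes the share higher by 2-fold was 5.67% in X-KO and 3.44% in WT. The medians of the route were 0.02 in X-KO and 0.15 in WT, DSS over naive. Ifng, the inducing cytokine, had a relative signal of 0.210 in X-KO DSS and 0.185 in WT DSS colon and was too dim in both untreated pools for more than a bound: it was at least 13.7-fold higher with DSS in X-KO and at least 11.3-fold in WT. Irf1, an interferon-induced transcription factor, had a relative signal of 16.96 in X-KO DSS and 22.2 in WT DSS colon, and of 12.6 in X-KO naive and 11.04 in WT naive colon. Socs1, a feedback inhibitor of the route, was 4.38-fold higher with DSS in X-KO and 5.69-fold in WT. Of the 11 measured genes of the route, 0 differed by 2-fold between X-KO DSS and WT DSS (median log2 ratio -0.13). That count is near the share over all genes, of which 5.06% were higher and 2.2% lower. Ciita was 2.02-fold higher in this comparison by its repetitive probe, and the part of the route in that value was not tested.

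Factors that assemble on the X and Y boxes, and their partners, were counted next. Of 10 measured class II regulators 0 passed 2-fold between X-KO DSS and WT DSS (median log2 ratio 0.05) or between X-KO DSS and X-KO naive (-0.06), and 1, the acetyltransferase Ep300, was 2.06-fold lower in WT DSS than in WT naive colon, where 5.14% of all genes were lower by 2-fold. A count of 0 of 10 is near what 5.06% higher and 2.2% lower over all genes would give. Rfx5, a subunit of the X box complex, was not well above background on any array. Of 16 measured genes of antigen breakdown and class II traffic, 0 passed 2-fold between X-KO DSS and WT DSS (median -0.09), likewise near the share over all genes. Ctss, the protease that trims the invariant chain, had a relative signal of 29.1 in X-KO DSS, 30.8 in WT DSS, 29.96 in X-KO naive and 30.9 in WT naive colon. Of the 16, 1 was higher by 2-fold in X-KO DSS than in X-KO naive colon, the asparaginyl protease Lgmn (2.001-fold). That count is near the share over all genes, 5.67%. Co-stimulation genes give T cells a second signal. Of 6 measured, 1, Cd80 (2.32-fold), was higher by 2-fold in X-KO DSS than in WT DSS colon (5.06% of all genes). With DSS over naive, 3 were higher by 2-fold in X-KO (5.67% of all genes) and 2 in WT (3.44% of all genes). Cd274, an inhibitory ligand, was 3.40-fold higher with DSS in X-KO and 4.35-fold in WT. Its relative signal was 0.687 in X-KO DSS and 0.766 in WT DSS colon. Cd40, a receptor for T cell help, was 3.15-fold higher with DSS in X-KO and 2.02-fold in WT, and Cd86 2.82-fold in X-KO.

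Leukocyte genes moved beside the class II genes, and their part in the class II values was not tested. The list of 8 genes shared by all leukocytes summed to a relative signal of 20.8 in X-KO DSS, 10.3 in WT DSS, 8.44 in X-KO naive and 6.32 in WT naive colon. The 10 class II genes summed to 112 in X-KO DSS, 52.2 in WT DSS, 46.9 in X-KO naive and 34.6 in WT naive colon, in the same order. The brightest probes weigh most in both sums. Ciita, H2-DMb2, H2-Oa, H2-Ob and Ptprc had another order, with X-KO naive above WT DSS. Both lists had medians of like size with DSS, X-KO over WT, at 1.13 for class II and 1.04 for leukocyte genes. There 6 of 8 leukocyte genes were higher by 2-fold, against 5.06% of all genes. In naive colon, X-KO over WT, the medians were 0.48 and 0.25, and all 10 class II genes lay above the leukocyte median, against 6 of 10 with DSS. For DSS over naive the class II median was 1.14 and that of leukocyte genes 1.33 in X-KO, with 4 of 10 class II genes above it, and both were near 0.56 in WT (0.56 and 0.55), with 5 of 10 above. Ptprc (CD45), which marks all leukocytes, had a relative signal of 0.437 in X-KO DSS and 0.172 in WT DSS colon, and of 0.179 in X-KO naive and 0.152 in WT naive colon.

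Markers of the cells that present antigen differed in their pattern. B cell genes were higher in X-KO than in WT with DSS, 8 of 11 measured passing 2-fold (5.06% of all genes) with a median log2 ratio of 1.04. In naive colon they had a median of 0.62 with 0 past 2-fold, a count near the share over all genes (1.13% higher). DSS over naive gave them medians of 0.33 in X-KO and -0.08 in WT, beside 0.56 in X-KO and 0.43 in WT for H2-Oa and 0.00 in X-KO and -0.40 in WT for H2-Ob. The B cell list summed to 4.37 in X-KO DSS, 2.24 in WT DSS, 3.62 in X-KO naive and 2.34 in WT naive colon, and Blk was not well above background on any array.

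Macrophage and monocyte genes followed DSS more closely. Of 13 measured, 9 were higher by 2-fold with DSS in X-KO (median 1.71, 5.67% of all genes) and 3 in WT (median 0.51, 3.44% of all genes). By the same measure 6 were higher in X-KO DSS than in WT DSS (median 1.02, 5.06% of all genes). X-KO over WT in naive colon gave these genes a median of -0.04. Their sum was 42.9 in X-KO DSS, 29.7 in WT DSS, 25.5 in X-KO naive and 24.8 in WT naive colon. Csf1r, the receptor on which macrophages depend, was 2.20-fold higher with DSS in X-KO and 1.25-fold in WT. Ccr2, the monocyte homing receptor, was 10.1-fold higher in X-KO and 3.67-fold in WT. Of 10 dendritic cell genes, 2 were higher by 2-fold in X-KO DSS than in WT DSS (5.06% of all genes), and the list's median was 0.80. Those 2 were the lectin Clec10a (2.58-fold) and the migration receptor Ccr7 (2.36-fold). Itgax, the dendritic cell integrin CD11c, had a relative signal of 0.729 in X-KO DSS and 0.416 in WT DSS colon, and of 0.554 in X-KO naive and 0.472 in WT naive colon. DSS over naive gave the dendritic cell list a median of 0.82 in X-KO, with 4 of 10 higher by 2-fold (5.67% of all genes) and 0 lower. In WT the list had a median of 0.22, with 2 higher by 2-fold (3.44% of all genes). Its summed signal, which the brightest probes weigh most, ran the other way, at 35.6 in X-KO DSS, 30.1 in WT DSS, 42.1 in X-KO naive and 36.8 in WT naive colon, and Xcr1 was not well above background on any array.

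Type 3 innate lymphoid cells and epithelium can take up class II expression without being professional presenters. Their genes were read beside those of T and NK cells and neutrophils. Type 3 innate lymphoid cell genes had a median log2 ratio of 1.03 with DSS, X-KO over WT. There 4 of 7 were higher by 2-fold, against 5.06% of all genes, among them Cxcr5 (2.16-fold), which the B cell list also holds. DSS over naive gave this list medians of 0.61 in X-KO and -0.14 in WT. Its sum was 3.33 in X-KO DSS, 2.41 in WT DSS, 4.13 in X-KO naive and 4.06 in WT naive colon. Epithelial genes had medians of -0.29 with DSS and 0.24 in naive colon, X-KO over WT, and Epcam, a surface protein of all gut epithelium, had a relative signal of 7.73 in X-KO DSS and 9.48 in WT DSS colon, and of 8.72 in X-KO naive and 8.38 in WT naive colon. T and NK cell genes had a median of 0.50 with DSS, X-KO over WT. Of 9 measured, 6 were above 0 and 2 were higher by 2-fold, against 5.06% of all genes. Cd3d, a chain of the T cell receptor complex, was 2.10-fold higher. The list's summed signal ran the other way, at 7.10 in X-KO DSS and 7.32 in WT DSS colon. Neutrophil genes, which belong to cells with little class II, had a median of 2.10 in that comparison, with 6 of 8 past 2-fold.

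**Figure D5:**
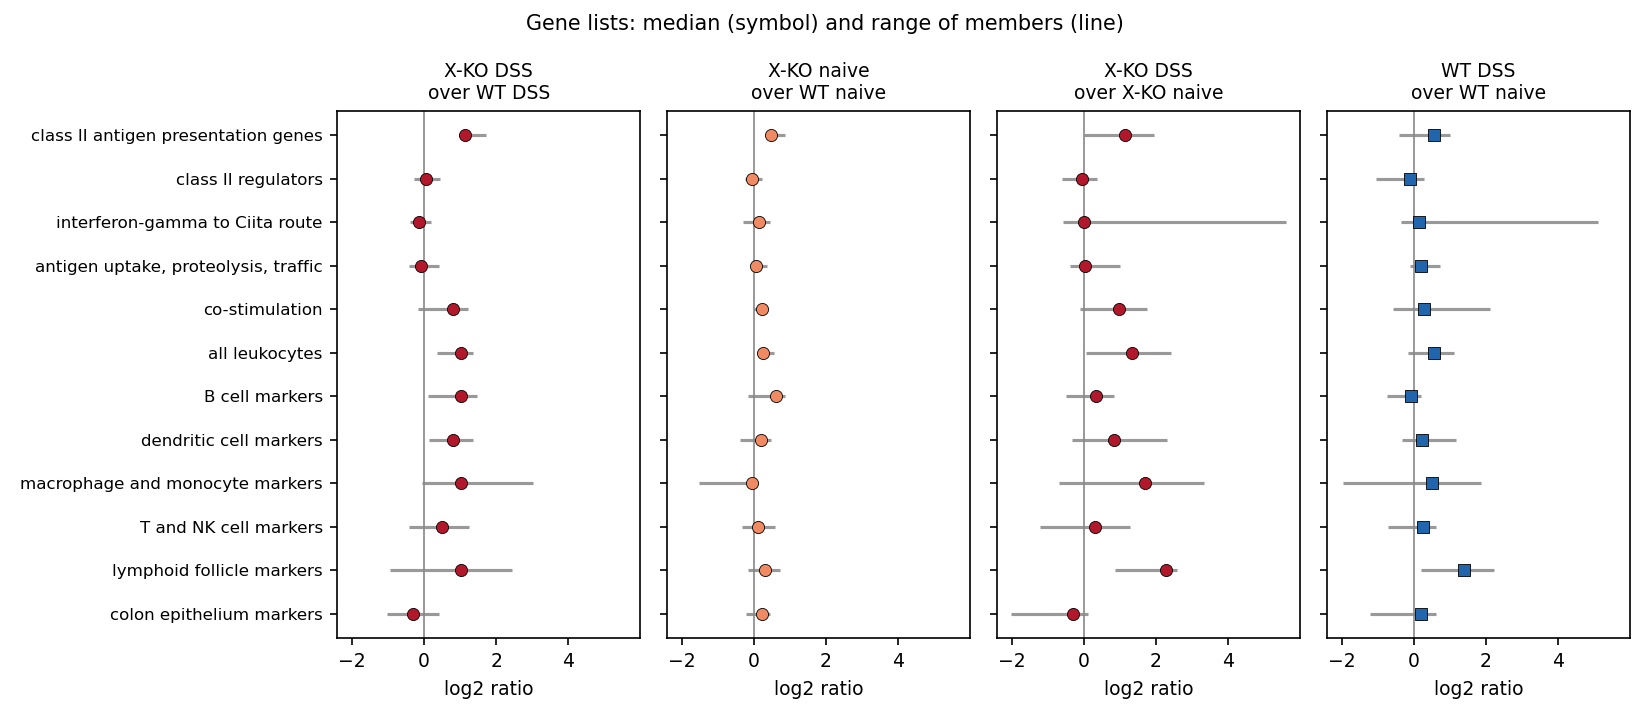
Median log2 ratio (symbol) and range of the measured members (line) of the class II genes and 11 other gene lists in the 4 comparisons. In X-KO DSS over WT DSS the class II median is 1.13, beside 1.04 for genes of all leukocytes, 1.04 for B cell genes and 0.05 for class II regulators.

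The genes with the most similar profile were sought among the 15792 named genes well above background on all 4 arrays. The measure was the Euclidean distance between log2 profiles over the 4 arrays, each centred on its own mean, to the mean profile of the 9 class II genes well above background throughout. The 8 nearest were P2ry10 (0.108), Cd3d (0.141), Arhgap30 (0.151), Sash3 (0.161), Icos (0.168), Fgr (0.17), Arhgap25 (0.17) and Myo1g (0.172), against a median distance of 1.38 over all candidates. Of these, Cd3d and Icos are T cell genes, and Fgr is a kinase of myeloid and B cells. Among the class II genes themselves H2-Eb1 (0.147), H2-Ab1 (0.181) and Cd74 (0.197) lay nearest the mean profile and H2-Ob (1.07) farthest. With 4 arrays this ranking is a description.

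The genes of the H2 complex lie together, their brightest probes within 0.221 Mb of chromosome 17 (mm9, 34232033 to 34453134). Ciita lies elsewhere, on chromosome 16, with its probe 3.19 Mb from that of Pla2g10 and 0.218 Mb from that of Clec16a. Clec16a, a gene with a part in mitophagy, had a relative signal of 0.650 in X-KO DSS and 0.203 in WT DSS colon, and of 0.729 in X-KO naive and 0.239 in WT naive colon. It was thus 3.21-fold higher in X-KO with DSS and 3.06-fold in naive colon, where Ciita was 2.02-fold and 1.44-fold higher. DNA that came along with the deleted allele and an effect of the deletion on Ciita cannot be told apart in this design. The part of leukocyte content, and of other RNA read by the repetitive probe, in the Ciita values was not tested.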

How the data were processed

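The members and gene lists were chosen with earlier results of these data known. The authors' scanner files give spot intensity after background subtraction and detrending, made with Agilent Feature Extraction 11.5.1.1 per the submitters' processing notes, with mm9 coordinates per the file headers. The deposited series table holds that signal as a ratio to the 75th percentile of its array, as a comparison of the files showed. Here, control spots and 129 to 136 outlier spots per array were left out, log2 intensity was set relative to the 75th percentile, and spots of a probe were averaged. A probe stayed if 1 array or more had it well above background, and the brightest stood for its gene. A lower array not well above background was set to the lowest signal well above background there, or the probe's own if higher, and the fold is then given as a lower bound. Genes were counted at 2-fold. Named by RefSeq accession were 27508 probes, by symbol 3544, by older symbol 404, and 7973 kept the file's name. The additive fit used limma 3.58.1 in R 4.3.3 and was tested on simulated data; figures used Python 3.11.15. Named were all members, up to 3 genes per list, direction and comparison past 2-fold, a fixed set of route and cell marker genes, and the 8 nearest profiles. The text gives part of these. Some items of the fixed set are not reported here.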

Additional observations from a re-analysis of the deposited data

Results flagged for a closer look

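H2-Ob had DSS effects of opposite sign in the genotypes, with a log2 ratio of DSS over naive of 0.0028 in X-KO and of -0.40 in WT colon. With 1 array per group every array of one genotype then moves one way and every array of the other the opposite way. The difference was not tested, and the X-KO value is within the noise of repeat spots. With normexp and quantile normalization both were above 0, at 0.37 in X-KO and 0.08 in WT colon. The second H2-Ob probe gave 0.38 in X-KO and -0.0039 in WT colon.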

How the results depend on the processing

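No paired analysis was possible because each group holds 1 array, and leaving out an array would leave no residual degree of freedom. The alternatives were median scaling, quantile normalization, normexp with quantile normalization, the mean of all probes, both filters on dim probes, outlier spots kept, the deposited series table, no bounds, a 1.5-fold threshold, and limma with trend and robust. For X-KO DSS over WT DSS the class II median stayed between 1.04 and 1.16, and 6 to 10 members were counted. The median of WT DSS over naive was 0.70 with median scaling, which moved the median of all genes to 0.12, and 0.41 with normexp; 2 members reached 2-fold with median scaling and 1 with quantile normalization. The median in X-KO, DSS over naive, was 1.24 with quantile normalization. The median difference of DSS responses was 0.81 with quantile normalization, 0.79 with normexp and 0.72 with the mean of all probes. At 1.5-fold, 4 members were counted in naive colon, X-KO over WT, and 5 in WT, DSS over naive. Limma's calls for DSS were 0, but 1271 with dim probes of any array dropped, 35 with no filter and 1615 with trend and robust, and for genotype 7 with trend and robust. The cause was not tested. Of 395 single-gene values under alternatives, 393 kept their sign; the exceptions were H2-Ob, at -0.69 in X-KO naive over WT naive with the mean of all probes, which takes in its dim probe, and at 0.08 in WT DSS over WT naive with normexp. Genes higher in X-KO DSS than in WT DSS at 2-fold numbered 1121, but 547 with normexp and 732 with dim probes of any array dropped; in naive colon, X-KO over WT, they numbered 250, but 137, 98 and 384 without bounds. In WT, DSS over naive, 40.1% of genes counted at 2-fold were higher, against 53.3% with median scaling and 52.9% with normexp; in X-KO 53.2%, against 63.9% with normexp. H2-DMb2 on the WT naive array was not well above background, which leaves a bound there.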

Other observations

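Genes of lymphoid follicles, which were measured beside the class II genes, were mostly higher with DSS. Of 7 measured, 6 were higher by 2-fold in X-KO DSS than in X-KO naive colon (median log2 ratio 2.28), where 5.67% of all genes were. In WT, DSS over naive, 4 were (median 1.40), where 3.44% of all genes were. Among those 4 were Gp2 (4.64-fold) and Glycam1 (at least 2.15-fold, its WT naive signal giving only a bound). Pancreas and fat genes were also mostly higher with DSS, 8 of 9 measured by 2-fold in each genotype. Their part in these counts, and in the Gp2 value, was not tested. Cxcl13, which draws B cells into follicles, was 6.03-fold higher with DSS in X-KO colon and 5.46-fold higher in X-KO DSS than in WT DSS colon. Madcam1, the vessel ligand by which lymphocytes enter gut tissue, was 5.94-fold higher with DSS in X-KO and 2.70-fold in WT. Ccl19, which draws T cells and mature dendritic cells, was 5.27-fold higher with DSS in X-KO. H2-Eb2, a class II beta chain gene outside the members, was 2.16-fold higher in X-KO DSS than in WT DSS colon.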
